A study of Mus musculus with 21 samples.

Results

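The mitochondrial carrier family SLC25 was followed in quadriceps muscle of mice before and after a single exhausting run. Its members were taken as the gene symbols made of Slc25a and a number, which gave 47 of the 53738 symbols in the table. Of these, 35 had a mean of at least 1 TPM (transcripts scaled for length and library total) over the 21 libraries and were tested. The samples were bulk quadriceps from wildtype male C57/Bl6 mice, 22 to 26 weeks old at sacrifice, in 7 groups of 3 libraries each. Sedentary mice had neither trained nor run, untrained mice ran on a treadmill until exhaustion, and trained mice did the same after 12 weeks with a running wheel. Muscle was taken from separate untrained and trained groups right after the run (0 h), at 6 h and at 72 h. Every trained group had also run to exhaustion, so training alone cannot be told apart from training followed by the run when a trained group is set against sedentary muscle. The labels do not say more about how the 3 samples of a group were obtained, and p values measure the spread between them.

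SLC25 proteins sit mostly in the inner mitochondrial membrane, which is otherwise closed to most charged metabolites. Each carrier passes particular substrates across it: ADP against ATP, phosphate, aspartate against glutamate, carboxylates, acylcarnitines, amino acids, nucleotides and cofactors. In skeletal muscle the ADP/ATP carriers hand newly made ATP to the contracting fibre, the aspartate/glutamate carriers bring in reducing equivalents from glycolysis, and the acylcarnitine carrier brings in fatty acids.

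Of all libraries, untrained 0 h replicate 1 and trained 0 h replicate 1 held identical values, so there were 20 distinct libraries. Each 0 h change of a carrier or a relative that passed a test below is also described without that library. The 0 h calls of cell type markers are not. Genes encoded in the mitochondrial genome took 37.7% to 40.6% of the TPM total at 0 h and 42.2% to 46.9% in sedentary muscle. At 6 h they took 40.6% to 43.7% in untrained and 45.7% to 47.0% in trained muscle. At 72 h they took 42.3% to 44.3% in untrained and 46.7% to 48.0% in trained muscle. Comparisons of trained with untrained TPM at these times carry this difference. The median log2 fold change of all tested genes at 0 h was 0.10 in untrained and 0.13 in trained muscle, and small shifts at 0 h are to be read against it. A gene was called when its adjusted p (limma, Benjamini-Hochberg over all 11819 tested genes) was below 0.05 and its change at least 1.5-fold. Markers of muscle fibres summed to between 50637 and 69081 TPM in every library, and none of the listed markers of fibres was at 0. At 0 h this sum was 61868 to 69081 TPM in untrained and 63807 to 69081 TPM in trained muscle, against 51805 to 60254 TPM in sedentary muscle. Markers of slow fibres summed to 243 to 367 TPM in untrained muscle at 0 h, with 1 of 6 called lower (Myl3), to 279 to 641 TPM in trained muscle at 0 h, with 0 of 6 called, and to 504.5 to 946 TPM in sedentary muscle. Of 6 endothelial markers, Kdr was called lower in each 0 h group. Among all 11819 tested genes, 73 were called lower in untrained and 41 in trained muscle at 0 h. The part of these markers in the 0 h results was not tested. Read counts cannot be had from TPM, sequencing depth is therefore unknown, and precision rests on the spread between replicates.

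A few carriers made up most of the family's transcripts. Slc25a4, the ADP/ATP carrier of heart and skeletal muscle, had the highest mean at 1096 TPM, with a range of 1001 to 1289 TPM. Slc25a12, the aspartate/glutamate carrier of muscle and brain, had a mean of 557 TPM and lay between 427 and 705 TPM. Slc25a3, which imports phosphate for ATP synthesis, had a mean of 398 TPM. With Slc25a11, which exchanges oxoglutarate for malate and had a mean of 115 TPM, these carriers supplied between 85.1% and 90.0% of the family's TPM as group means. TPM is scaled by transcript length, so these levels may be set against each other.

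The remaining tested members were spread over a wide range of lower levels. Slc25a25 had a mean of 44.2 TPM but a median of 4.51 TPM, the sign of a gene that was high in only some libraries. The acylcarnitine carrier Slc25a20 had a mean of 27.1 TPM, the second ADP/ATP carrier Slc25a5 23.5 TPM and the glutathione carrier Slc25a39 22.9 TPM. Among cofactor and nucleotide carriers, the NAD carrier Slc25a51 had a mean of 15.8 TPM and the coenzyme A carrier Slc25a42 10.5 TPM, with Slc25a36, Slc25a26, Slc25a16, Slc25a17, Slc25a33 and Slc25a32 between 1.97 and 9.77 TPM. The iron importers Slc25a28 and Slc25a37 had means of 14.3 and 3.96 TPM.

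Carriers of amino acids other than aspartate and glutamate were low. Slc25a44, Slc25a38, Slc25a15, Slc25a29 and Slc25a40, the last a paralog of the glutathione carrier, had means between 1.08 and 6.08 TPM. The citrate carrier Slc25a1 had a mean of 3.76 TPM and the dicarboxylate carrier Slc25a10 1.62 TPM. The glutamate carrier Slc25a22 (10.02 TPM), the calcium-regulated ATP-Mg/phosphate carrier Slc25a23 (8.90 TPM), the outer membrane protein Slc25a46 (7.23 TPM), Slc25a35 (5.05 TPM), Slc25a34 (4.62 TPM), Slc25a47 (3.55 TPM), Slc25a27 (2.49 TPM), Slc25a30 (1.89 TPM) and Slc25a53 (1.44 TPM) completed the tested members described here.

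The other 12 members had a mean under 1 TPM and were not tested. Slc25a24 was nearest to the limit at 0.73 TPM, with Slc25a40 at 1.08 TPM just above it. Slc25a14 and Slc25a45 had means of 0.683 and 0.529 TPM. Slc25a13, the liver aspartate/glutamate carrier, had a mean of 0.288 TPM and Slc25a43 0.165 TPM. Slc25a2, Slc25a18, Slc25a21, Slc25a41, Slc25a48 and Slc25a31, the ADP/ATP carrier of the testis, lay between 0.00528 and 0.104 TPM. Slc25a54 was listed at 0 in all libraries.

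**Figure D1:**
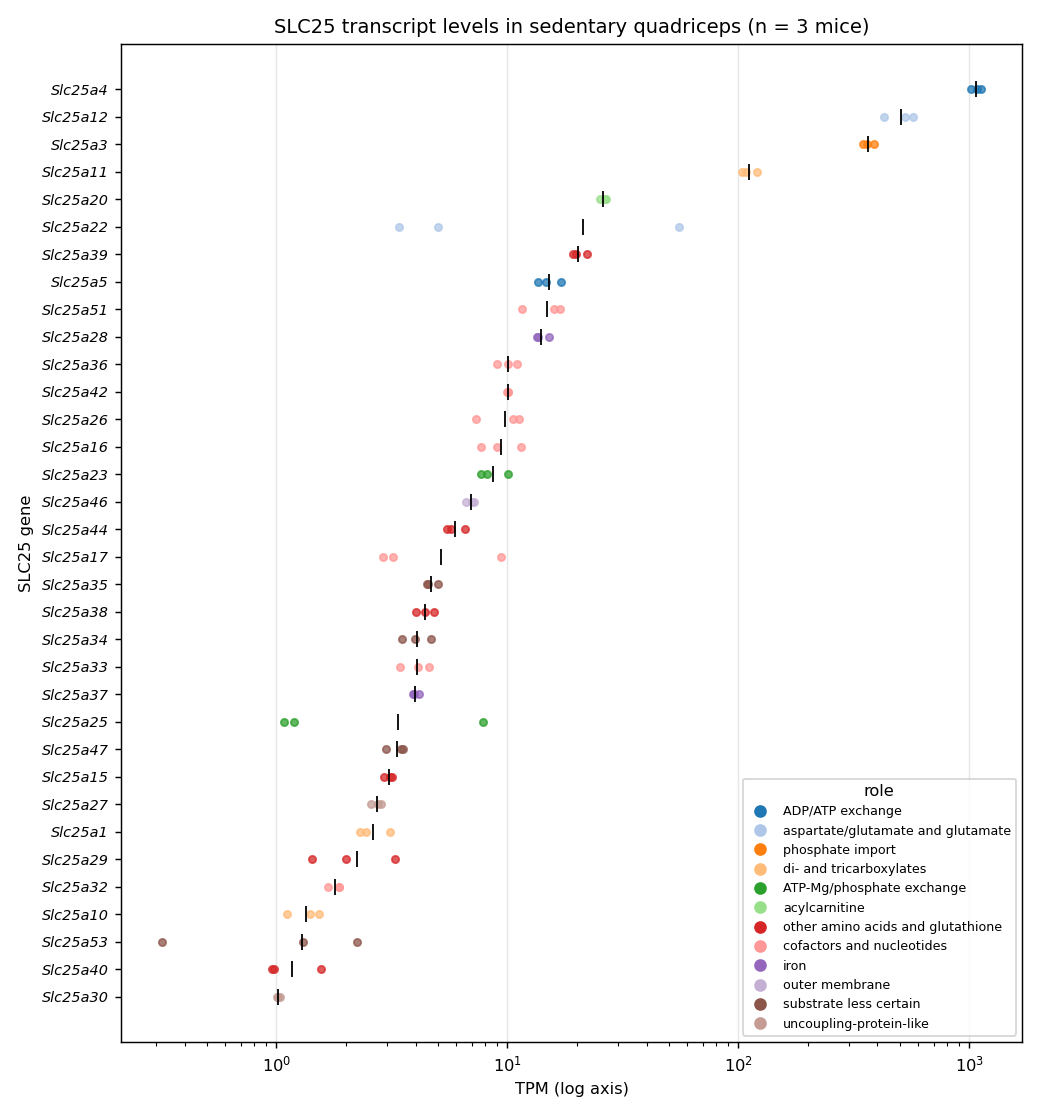
Level of 34 of the 35 tested SLC25 genes in the 3 sedentary libraries, in TPM on a log axis, with 1 point per library, a black bar for the mean and colour for the role. Slc25a4, Slc25a12, Slc25a3 and Slc25a11 stand above the rest, and Slc25a22 and Slc25a25 each have 1 library far above the other 2.

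The first question was what the run changed at its end. In untrained muscle at 0 h, 2 of 35 tested members were called, both higher, against 3.59% of all tested genes in either direction and 2.97% higher. In trained muscle at 0 h, 2 of 35 were called, again both higher, against 3.74% in either direction and 3.39% higher. The members were Slc25a25 and Slc25a5 in each comparison, which share the sedentary libraries and the identical library. The median log2 fold change of the members was 0.09 in untrained and 0.15 in trained muscle, close to that of all tested genes given above.

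Slc25a25, an ATP-Mg/phosphate carrier with calcium-binding EF-hands that adjusts the adenine nucleotide pool of the matrix, lies on chromosome 2 at 32303547 to 32341482, minus strand (GRCm39). In sedentary muscle it measured 1.08, 1.19 and 7.85 TPM. At 0 h the untrained libraries measured 134, 150 and 144 TPM and the trained libraries 134, 181 and 129 TPM, the first value of each being the identical library. Every 0 h library lay far above every other library of the study.

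The log2 fold change of Slc25a25 on the log2(TPM + 0.5) scale was 5.67 (SE 0.50, adjusted p = 2.12e-06, limma) in untrained and 5.71 (SE 0.50, adjusted p = 1.75e-06) in trained muscle. Without the identical library it was 5.71 and 5.77, with adjusted p values of 5.33e-05 and 4.51e-05. With all libraries, trained and untrained muscle differed at 0 h by 0.04 (95% interval -1.02 to 1.10). That interval allows a difference of about 2-fold in either direction. The identical library counts in both groups here, which draws the difference towards 0, so the interval is only a rough guide.

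The rise of Slc25a25 was not seen at the later time points. At 6 h it measured 2.05, 5.38 and 7.77 TPM in untrained and 1.5, 2.40 and 3.34 TPM in trained muscle. At 72 h it measured 2.79, 3.14 and 3.52 TPM in untrained and 4.51, 5.18 and 4.17 TPM in trained muscle. These libraries lay within the range of the sedentary ones, which itself rested on replicate 3. Without sedentary replicate 3, Slc25a25 was also called in untrained muscle at 6 h.

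The promoter stretches of Slc25a25 and Slc25a36 are shown because they share an element. The RefSeq promoter table (GRCm38.p6; 250 bases before to 50 after each start) held 46 promoters of 36 members. The cyclic AMP response element, TGACGTCA, read on both strands, occurred in 1.79% of all 32851 promoters and in promoters of 2 members. In the lines below it is in capitals, 5′ to 3′, placed on GRCm39.
Slc25a25, chr2:32314210-32314239, minus strand: tctgcaagcagTGACGTCAgtcctgatctt
Slc25a36, chr9:96993237-96993266, minus strand: tgcgaacctcgTGACGTCAcgcggcctaag
By the starts in the RefSeq table, the element lay 150 bases before 1 of the starts of Slc25a25 and 161 bases before the start of Slc25a36. The GRCm39 annotation used for gene positions places both stretches inside the gene, since it also holds transcripts that start further upstream. A match of letters is a description and shows no binding.

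Slc25a36, which carries pyrimidine nucleotides, had levels at 0 h close to those of sedentary muscle. The part of the element in the levels of either gene was not tested. Slc25a36 was not called at 0 h. Its libraries measured 10.1, 11 and 9.02 TPM in sedentary muscle, 14.4, 11.5 and 10.5 TPM in untrained muscle at 0 h, and 14.4, 10.9 and 10.9 TPM in trained muscle at that time. The log2 fold change was 0.25 in each (adjusted p = 0.439 and 0.421, limma), and without the identical library it was 0.13 in untrained and 0.12 in trained muscle. The letters TCAAGGTCA, an element of estrogen-related receptors, occurred in 0 member promoters and in 0.423% of all promoters, and the NRF-1 site in 0 member promoters and 0.971% of all promoters.

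Slc25a5, the ADP/ATP carrier found in most tissues and in proliferating cells, was called against sedentary muscle at 0 h and at 6 h. It lies on chromosome X at 36059223 to 36062462, plus strand (GRCm39). It measured 13.6, 14.7 and 17.0 TPM in sedentary muscle. At 0 h it measured 27.9, 24.2 and 21.4 TPM in untrained and 27.9, 23.6 and 26.2 TPM in trained muscle, so no 0 h library overlapped the sedentary ones. The change on the log2 scale was 0.68 (SE 0.12, adjusted p = 0.00133, limma) and 0.76 (SE 0.12, adjusted p = 0.000432).

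In untrained muscle the size of this change was near the threshold. Without the identical library, the log2 fold change of Slc25a5 at 0 h was 0.58 (adjusted p = 0.0119) in untrained muscle, just under the 1.5-fold limit, and 0.71 (adjusted p = 0.00277) in trained muscle. With TPM rescaled after genes of the mitochondrion's own genome and the 10 most abundant genes were taken out, neither 0 h comparison reached 1.5-fold.

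At 6 h Slc25a5 was again above sedentary muscle in every library. It measured 27.2, 34.0 and 32.5 TPM in untrained and 37.7, 29.2 and 35.2 TPM in trained muscle, a mean of 31.2 ± 3.54 and 34.0 ± 4.39 (SD, n = 3) against 15.1 ± 1.73 in sedentary muscle. The log2 fold change was 1.02 (SE 0.12, adjusted p = 2.66e-05, limma) and 1.15 (SE 0.12, adjusted p = 3.10e-05). At 72 h its mean was 16.7 TPM in each of the untrained and trained groups. Trained and untrained muscle differed at 6 h by 0.12 (95% interval -0.12 to 0.37, adjusted p = 0.640).

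The muscle ADP/ATP carrier Slc25a4 was not called in any comparison. It measured 1072 ± 56.8 TPM in sedentary muscle, 1190 ± 85.8 and 1195 ± 82.5 at 0 h, and 1073 ± 56.4 and 1023 ± 7.27 at 6 h in untrained and trained muscle (SD, n = 3). Slc25a5 made up 1.39% ± 0.12 of the TPM of Slc25a4 and Slc25a5 together in sedentary muscle, 2.01% ± 0.15 and 2.12% ± 0.14 at 0 h, and 2.83% ± 0.39 and 3.22% ± 0.38 at 6 h. This share was 1.49% ± 0.04 and 1.62% ± 0.12 at 72 h. The share is a ratio within each library and does not depend on how libraries were scaled.

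Reads of Slc25a5 could be drawn from or lost to neighbours. The whole of the gene, 3240 bases, lies inside Steep1 on the other strand, which had a mean of 3.21 TPM, and the library kit does not mark strand. Slc25a5-ps, a processed copy, reached 0.159 TPM at most. In bulk muscle, fewer cells of a type and less RNA per cell cannot be told apart, and Slc25a5 is also used by cells between the fibres. Summed macrophage markers lay between 20.96 and 47.0 TPM in untrained and 18.2 and 27.2 TPM in trained muscle at 6 h, against 22.9 to 25.6 TPM in sedentary muscle. Their part in the change of Slc25a5 was not tested.

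**Figure D2:**
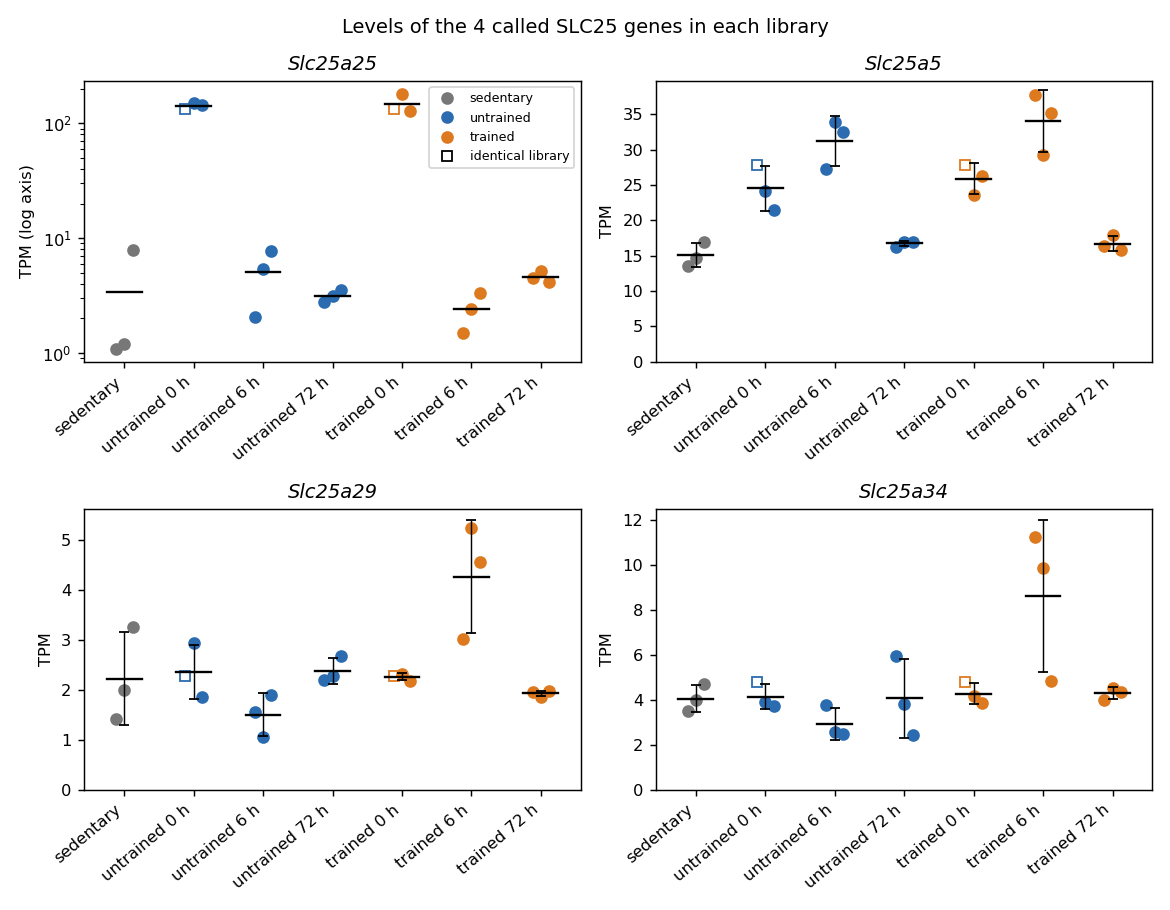
TPM of the 4 called SLC25 genes in each library of the 7 groups, with a log axis for Slc25a25, bars for the mean and, on linear axes, error bars of 1 SD (n = 3); open squares are the library that is identical in both 0 h groups. Slc25a25 is high only at 0 h, Slc25a5 at 0 h and 6 h, and Slc25a29 and Slc25a34 in trained muscle at 6 h.

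The other abundant carriers moved little at 0 h. Slc25a3 measured 347, 360 and 385 TPM in sedentary muscle, 463, 435 and 416 TPM in untrained muscle at 0 h, and 463, 428 and 424 TPM in trained muscle at 0 h. No 0 h library overlapped the sedentary ones. The log2 fold change was 0.27 (SE 0.07) in each, with adjusted p values of 0.0297 and 0.0246 (limma), under the 1.5-fold limit. An adjusted p below 0.05, with no limit on the fold, was found for 7.46% and 9.37% of all tested genes. Neither adjusted p stayed below 0.05 under median-of-ratios scaling, under rescaling, or without the identical library.

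Slc25a12 measured 524, 427 and 569 TPM in sedentary muscle, and its libraries at 0 h, 440 to 681 TPM, overlapped these through the identical library at 440 TPM. Without that library the log2 fold change at 0 h was 0.34 in untrained and 0.41 in trained muscle (adjusted p = 0.183 and 0.0823, limma). With all libraries its log2 fold changes in the 6 comparisons with sedentary muscle lay between -0.02 and 0.37, none with an adjusted p below 0.05. The highest values, 569 to 705 TPM in untrained muscle at 72 h, had a log2 fold change of 0.37 (adjusted p = 0.853). The family as a whole summed to 2306 ± 129 TPM in sedentary muscle, 2714 ± 5.36 and 2754 ± 51.1 at 0 h, and between 2310 and 2504 as means at the later times. At 0 h, Slc25a25 alone had means of 143 and 148 TPM of that sum.

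At 6 h the 2 kinds of muscle gave different counts. In untrained muscle, 1 of 35 members was called, Slc25a5, which was higher, against 4.42% of all tested genes in either direction and 3.53% higher. In trained muscle, 3 of 35 were called, all higher, against 3.85% in either direction and 2.41% higher, namely Slc25a5, Slc25a29 and Slc25a34. A difference between counts is no test, and the direct comparison of trained with untrained muscle follows below. The median log2 fold change of the members was -0.09 in untrained and 0.03 in trained muscle, against 0.01 and -0.01 for all tested genes.

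With no limit on the fold, an adjusted p below 0.05 was found at 6 h for 5 of 35 members in untrained and 7 of 35 in trained muscle, against 9.47% and 10.4% of all tested genes. Besides the called members, these were members with changes under 1.5-fold. The mitochondrial ornithine carrier Slc25a15 fell by 0.26 in untrained and by 0.22 in trained muscle on the log2 scale (adjusted p = 0.0104 and 0.0290, limma). Slc25a27, also known as uncoupling protein UCP4, fell by 0.26 in each (adjusted p = 0.0330 and 0.0283). The glutathione carrier Slc25a39 rose by 0.26 and 0.36 (adjusted p = 0.0461 and 0.00709). Slc25a15 kept an adjusted p below 0.05 in 12 of 13 alternative analyses in untrained and 9 in trained muscle, Slc25a27 in 6 and 7, and Slc25a39 in 5 and 12.

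Slc25a33, a pyrimidine nucleotide carrier, passed the adjusted p in trained muscle at 0 h and, with the opposite sign, in untrained muscle at 6 h. It measured 3.42, 4.11 and 4.59 TPM in sedentary muscle, 5.40, 5.61 and 5.15 TPM in trained muscle at 0 h and 2.95, 3.07 and 2.92 TPM in untrained muscle at 6 h. The log2 fold changes were 0.38 (adjusted p = 0.0419) and -0.38 (adjusted p = 0.0450, limma). In untrained muscle at 0 h the change was 0.20 (adjusted p = 0.298), and in trained muscle at 6 h it was -0.30 (adjusted p = 0.0994, limma). Without the identical library the change in trained muscle at 0 h was 0.38 with an adjusted p of 0.0852. The adjusted p stayed below 0.05 in 3 of 14 alternative analyses in trained muscle at 0 h and in 5 of 13 in untrained muscle at 6 h.

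**Figure D3:**
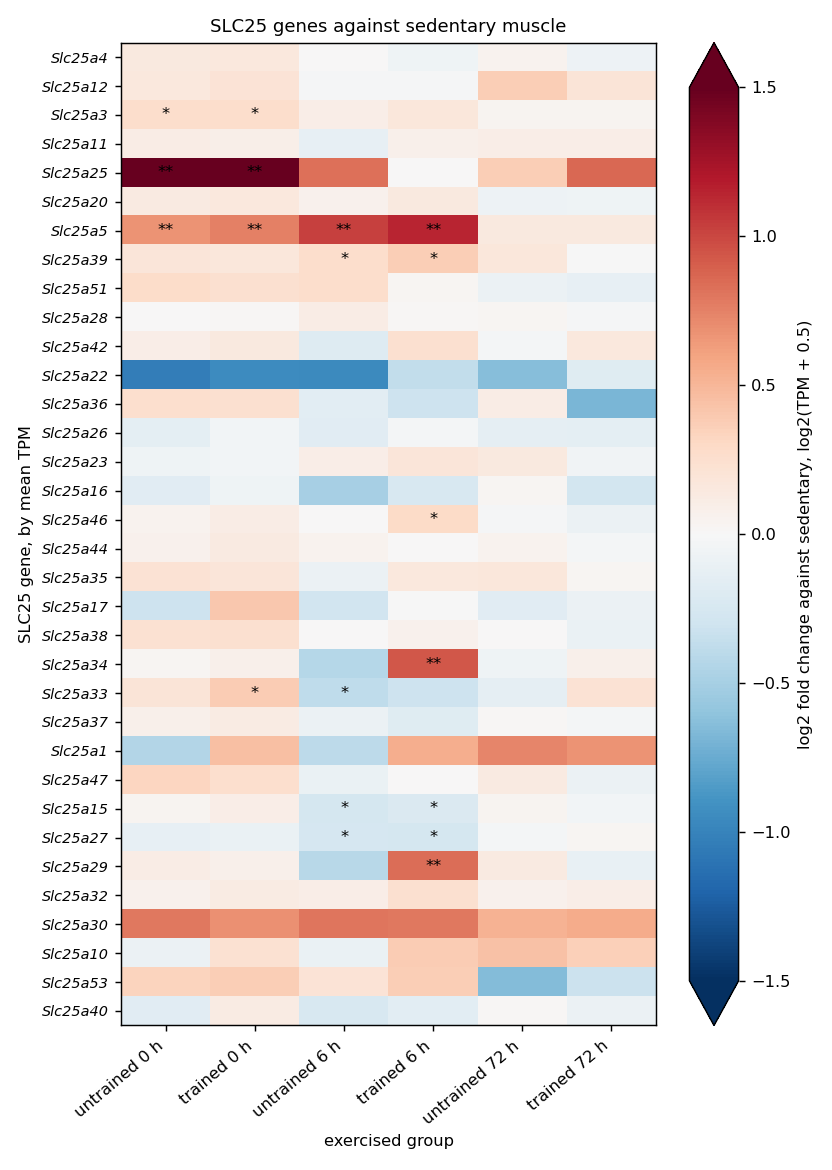
Log2 fold change against sedentary muscle of 34 of the 35 tested SLC25 genes (rows, in order of mean TPM) in the 6 exercised groups (columns), on the log2(TPM + 0.5) scale; the colour scale stops at 1.5 either way. A double star marks a called gene and a single star an adjusted p below 0.05 with a change under 1.5-fold; 8 cells carry a double star, and none lies in the 72 h columns.

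The study also asked how trained muscle answered the run compared with untrained muscle. At 6 h, 2 of 35 members were called in the direct comparison, both higher in trained muscle, against 2.01% of all tested genes in either direction and 0.558% higher. They were Slc25a29 and Slc25a34. Of the members, 26 of 35 had a log2 fold change above 0, with a median of 0.10 against -0.04 for all tested genes. The count above 0 was also 26 of 35 at 0 h, where the groups share a library, and 12 of 35 at 72 h.

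Slc25a29, a carrier of basic amino acids such as arginine and lysine, lies on chromosome 12 at 108791795 to 108802201, minus strand (GRCm39). It measured 1.56, 1.05 and 1.90 TPM in untrained and 3.02, 5.25 and 4.56 TPM in trained muscle at 6 h. These groups did not overlap, while the sedentary values of 1.42, 2.00 and 3.26 TPM reached into both. The difference was 1.25 on the log2 scale (SE 0.22, adjusted p = 0.00359, limma). Against sedentary muscle, trained muscle was higher by 0.83 (SE 0.22, adjusted p = 0.0251) and untrained muscle differed by -0.41 (adjusted p = 0.306).

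Slc25a29 shares 230 bases with Slc25a47 on the other strand. It also shares 717 bases with Gm60623, a long non-coding RNA gene on the other strand that has no TPM value here. Slc25a47 measured 2.88, 2.87 and 3.43 TPM in untrained and 3.00, 3.28 and 3.74 TPM in trained muscle at 6 h, ranges that overlapped. Without strand information, reads in the shared stretches cannot be told apart.

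Slc25a34, a carrier whose substrate is less certain, lies on chromosome 4 at 141346130 to 141351151, minus strand (GRCm39). The gene shares 596 bases with Gm68494, a long non-coding RNA gene on the other strand without a TPM value here, and reads there cannot be told apart. Slc25a34 was read library by library. It measured 3.50, 3.98 and 4.68 TPM in sedentary, 3.76, 2.56 and 2.45 TPM in untrained and 11.2, 9.85 and 4.81 TPM in trained muscle at 6 h. All trained libraries lay above all untrained and sedentary ones, although replicate 3 only just did so. The difference between trained and untrained muscle was 1.36 (SE 0.27, adjusted p = 0.00878, limma), and that between trained and sedentary muscle 0.93 (SE 0.27, adjusted p = 0.0396).

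Both genes kept their call against untrained muscle when each library was left out in turn. With only the 6 libraries of these groups in the model, the adjusted p was 0.185 for Slc25a29 and 0.240 for Slc25a34. Against sedentary muscle, leaving out 1 library took the adjusted p as high as 0.123 for Slc25a29 and 0.173 for Slc25a34. The libraries that did so were sedentary replicates 1 and 2 and trained 6 h replicate 2 for each gene, with trained 6 h replicate 3 for Slc25a29 and sedentary replicate 3 and trained 6 h replicate 1 for Slc25a34.

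Markers of slow fibres moved in the same comparison. Their summed level was 251, 341 and 225 TPM in untrained and 1052, 350 and 557 TPM in trained muscle at 6 h, and 1 of 6 was called higher (Myl2). Untrained muscle at 6 h lay below sedentary muscle, with 2 of 6 called lower against it (Myl2 and Myl3), and trained muscle had 0 of 6 called against sedentary muscle. The trained library with the highest slow-fibre sum, replicate 1, had the lowest Slc25a29 and the highest Slc25a34 of its group. Macrophage markers had 1 of 6 called lower in trained than in untrained muscle (Csf1r), the same gene being called higher in untrained than in sedentary muscle. Of 6 muscle fibre markers, Mb was called higher in trained than in untrained muscle, while the median log2 fold change of the 6 was -0.11. Markers of fast glycolytic fibres summed to 38922 to 44036 TPM in trained and 48257 to 50911 TPM in untrained muscle at 6 h. Of these, 0 of 6 were called between the groups. Against sedentary muscle, trained muscle at 6 h had 2 of 5 fibro-adipogenic markers called lower (Col1a1 and Col3a1), as were 170 of the 11819 tested genes. The 5 adipocyte markers had a median log2 fold change of 0.65 against sedentary and 0.49 against untrained muscle, with 0 called. The part of all these markers in these results was not tested.

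With no limit on the fold, 4 of 35 members had an adjusted p below 0.05 in this comparison, against 4.56% of all tested genes, and the further ones were Slc25a42 and Slc25a46. Slc25a42, which carries coenzyme A into the matrix, measured 8.77, 9.31 and 8.13 TPM in untrained and 12.9, 11.9 and 11.03 TPM in trained muscle at 6 h. Sedentary muscle, at 10.05, 10.1 and 9.99 TPM, lay between them. The difference was 0.43 (SE 0.08, adjusted p = 0.00359, limma), and with only the groups compared its adjusted p was 0.196. Slc25a42 overlaps Tmem161a on the other strand by 70 bases.

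Slc25a46, a protein of the outer membrane that takes part in mitochondrial shape and lipid transfer, measured 6.46, 7.55 and 7.0 TPM in untrained and 8.76, 8.30 and 8.57 TPM in trained muscle. The difference was 0.27 (SE 0.07, adjusted p = 0.0398). Against sedentary muscle, trained muscle at 6 h was higher by 0.28 (SE 0.07, adjusted p = 0.0179). The adjusted p of the difference from untrained muscle stayed below 0.05 in 5 of 13 alternative analyses, and not with the replicate number as a block.

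**Figure D4:**
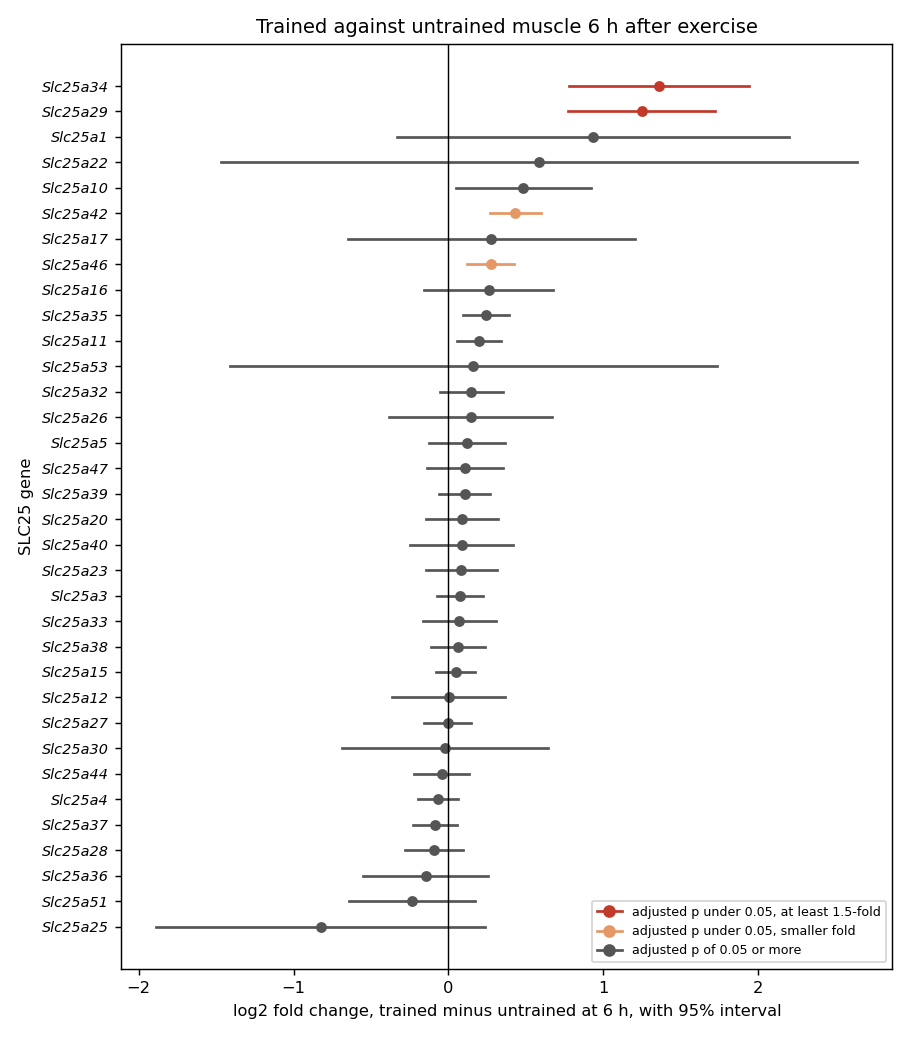
Log2 fold change of trained minus untrained muscle at 6 h for 34 of the 35 tested SLC25 genes, with points for the estimate and lines for the 95% interval from limma. Slc25a34 and Slc25a29 lie furthest to the right, at 1.36 and 1.25, and the widest interval is that of Slc25a22.

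No member was called at the other times of this comparison. At 0 h, 0 of 35 were called, as were 0 of all tested genes, with or without the identical library. That library lies in both groups and draws their difference towards 0. With it, 1 of 35 members and 143 of the 11819 tested genes had an unadjusted p below 0.05 (limma). Without it, 528 of the 11819 did. At 72 h, 0 of 35 were called against 0.245% of all tested genes. An unadjusted p below 0.05 (limma) was found for 6 of 35 members, against 1769 of the 11819 tested genes. The lowest adjusted p among the members at 72 h was 0.0892, that of Slc25a36, and the difference was -0.79 (SE 0.19, 95% interval -1.20 to -0.39, limma). Slc25a36 measured 10.2, 11.4 and 10.9 TPM in untrained and 7.26, 5.0 and 6.07 TPM in trained muscle at 72 h, groups that did not overlap.

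Against sedentary muscle at 72 h, 0 of 35 members were called in untrained muscle (0.00846% of all tested genes) and 0 of 35 in trained muscle (0.169%). An unadjusted p below 0.05 (limma) was found for 4 of 35 members in untrained and 1 of 35 in trained muscle. Of the 11819 tested genes, 682 and 1379 had one. The lowest adjusted p was 0.843 in untrained and 0.146 in trained muscle, the latter again from Slc25a36 at -0.68 (SE 0.19).

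By role, the calls were few and scattered. Over the 9 comparisons, 4 members were called at least once, against 9.76% of all tested genes, and 24 of 35 never had an adjusted p below 0.05, against 76.6% of all tested genes. The called members were 1 of 2 tested ADP/ATP carriers, 1 of 2 tested ATP-Mg/phosphate carriers, 1 of 6 tested carriers of other amino acids and glutathione, and 1 of 4 tested carriers with a less certain substrate. Of 9 cofactor and nucleotide carriers 0 were called, and of 3 tested carboxylate carriers, 2 tested aspartate/glutamate and glutamate carriers and 2 iron carriers none had an adjusted p below 0.05. The acylcarnitine carrier Slc25a20, the step between Cpt1b and Cpt2 in fatty acid oxidation, stayed between -0.08 and 0.15 in log2 fold change over all comparisons.

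SLC25 proteins that carry other symbols were read beside the family. Ucp3, the muscle uncoupling protein, measured 38.5, 36.2 and 14.5 TPM in sedentary muscle, 74.5, 74.9 and 67.5 TPM in untrained muscle at 6 h and 72.7, 37.8 and 36.1 TPM in trained muscle at 6 h. It was called in untrained muscle at 6 h, with a log2 fold change of 1.39 (SE 0.37, adjusted p = 0.0243, limma). In trained muscle at 6 h the change was 0.75 (adjusted p = 0.222), and the difference between trained and untrained was -0.64 (95% interval -1.41 to 0.14, adjusted p = 0.381), so the groups were not shown to differ. Without sedentary replicate 3, the change of Ucp3 in untrained muscle at 6 h was 0.94 (adjusted p = 0.107), and without untrained 6 h replicate 2 or 3 its adjusted p was 0.0719 or 0.0560. It was 0.0941 with no expression filter and 0.174 with only the groups compared.

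Ucp2, its relative in many tissues, rose by 0.53 in trained muscle at 0 h (adjusted p = 0.0165) and by 0.47 in untrained muscle at 6 h (adjusted p = 0.0273), each under 1.5-fold. Without the identical library the change of Ucp2 in trained muscle at 0 h was 0.61 (adjusted p = 0.0170), past the 1.5-fold limit. Mtch1, an outer membrane relative of the carriers, rose by 0.43 in trained muscle at 0 h (adjusted p = 0.0252), and by 0.52 without the identical library (adjusted p = 0.0187). Mtch2 had no such change at 0 h or 6 h, and Ucp1, the uncoupling protein of brown fat, had a mean under 1 TPM.

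Carrier proteins are made in the cytosol and brought to the inner membrane by small chaperones and the TIM22 complex. Of 16 listed genes for this import, 2 were called higher in trained muscle at 6 h, both for intermembrane-space chaperones, against 2.41% of all tested genes called higher. None was called lower, and the median log2 fold change of the 16 was 0.06. Timm10 measured 14.1, 13.8 and 15.8 TPM in sedentary and 29.7, 28.0 and 24.4 TPM in trained muscle at 6 h, a log2 fold change of 0.89 (SE 0.09, adjusted p = 4.93e-05, limma). Timm8a1 measured 3.81, 4.37 and 4.70 TPM and 8.50, 6.29 and 7.18 TPM, a change of 0.70 (SE 0.14, adjusted p = 0.00368). With only the groups compared, the adjusted p of Timm8a1 was 0.0570. Other chaperones of this kind were not called and lay on either side of sedentary muscle. Timm9 measured 13.7, 13.5 and 15.9 TPM in trained muscle at 6 h against 11.7, 10.7 and 12.8 TPM in sedentary muscle. Timm10b measured 18.2, 20.7 and 17.4 TPM against 23.9, 21.5 and 23.7 TPM.

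In untrained muscle at 6 h the change of Timm10 was 0.52 (adjusted p = 0.00190), under the 1.5-fold limit, and the difference between trained and untrained was 0.36 (adjusted p = 0.0396). At 6 h, of 18 tested genes for other mitochondrial transport, such as the pyruvate carrier and the calcium uniporter, 0 were called, and of 9 tested enzymes and transporters that work with the shuttles, 0 were called. The import list holds no SLC25 member.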

How the data were processed

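RNA was measured by bulk RNA-seq (TruSeq RNA v2). The authors quantified reads with salmon 1.5.0 and deposited TPM values for 53738 gene symbols, and the submitters' processing notes also name STAR 2.7.9, GRCm39 and DESeq2 3.16. Columns were matched to samples by name, and 0 were left over. TPM was transformed to log2(TPM + 0.5), and 11819 genes, those averaging 1 TPM or more, were fitted with limma 3.58.1 (R 4.3.3, variance trend, 7 group means, 14 residual degrees of freedom, all 21 columns). The identical library entered through both 0 h groups into the spread shared by all comparisons. Comparisons at 6 h and 72 h were free of it only with just the groups compared in the model. P values were adjusted within each of 9 comparisons (Benjamini-Hochberg), and a gene was called below 0.05 with a log2 fold change of at least 0.585 either way.

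Members followed from their symbols. Counts cover all 35 tested members, 1 of which is not reported here by name. Roles, lists and the rule for named genes (the 3 highest members, every called member, and called genes of the lists) were chosen with earlier results of these data known. Members named beyond that rule were picked after their values were seen. The lists covered SLC25 proteins under other symbols, other mitochondrial transport, import of carriers, shuttle enzymes and cell type markers. Gene positions came from the GRCm39 annotation and promoters from RefSeq. Libraries with the same replicate number did not deviate together (r between -0.07 and 0.10), apart from trained and untrained muscle at 0 h (0.69, 0.13 and 0.13), which share a library. Alternatives were pseudocounts of 0.1 and 1, no expression filter, median-of-ratios scaling, rescaling without mitochondrial-genome genes and the 10 highest genes, only the groups compared, a replicate block, no fold threshold, and leaving out libraries. Figures were drawn with matplotlib 3.10.9.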

Additional observations from a re-analysis of the deposited data

Results flagged for a closer look

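Members that differed between trained and untrained muscle at 6 h by the direct test (limma, adjusted p below 0.05) were singled out. Slc25a34 was higher in trained muscle by 1.36 and Slc25a29 by 1.25 on the log2 scale, each with all 3 trained libraries above all 3 untrained ones. Slc25a42 was higher by 0.43 and Slc25a46 by 0.27, again with groups that did not overlap. The time points were not tested against each other.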

How the results depend on the processing

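Alternatives were run for the 23 changes of single members with an adjusted p below 0.05, and none reversed the direction of any of these. Of 129 recomputed counts of called members, 111 stayed within 1.5 times of the reported count and 18 moved further. The 111 include counts that stayed at 0 in comparisons with 0 called members, which says little about stability. Of 306 recomputed fold changes of single members, 214 kept their side of the adjusted p and 92 lost it. In untrained muscle at 0 h the count was 1 instead of 2 under median-of-ratios scaling, under rescaling, with only the groups compared and without the identical library, Slc25a5 being the member lost. In trained muscle at 0 h it was 1 under rescaling. In untrained muscle at 6 h it was 2 with only the groups compared, where Slc25a30 was added. In trained muscle at 6 h it was 1 instead of 3 with no expression filter and with only the groups compared, and in trained against untrained muscle at 6 h it was 0 instead of 2 with only the groups compared. Without the fold threshold the counts were 4 in trained muscle at 0 h, 5 and 7 in untrained and trained muscle at 6 h, and 4 in trained against untrained muscle at 6 h. Leaving out 1 library gave 1 to 3 in untrained muscle at 0 h, 1 to 2 in untrained muscle at 6 h and 1 to 2 in trained muscle at 6 h. In untrained muscle at 0 h the count was 1 without replicate 1. In trained muscle at 6 h it was 1 without sedentary replicate 1, sedentary replicate 2 or trained replicate 2, and in untrained muscle at 6 h it was 2 without sedentary replicate 3. The causes were not tested. With the replicate number as a block the counts of called members were 2 and 2 at 0 h, 1 and 3 at 6 h, and 2 in trained against untrained muscle at 6 h, as in the fit without it, and 0 elsewhere. TPM without counts gives no limit of detection for the 12 members under 1 TPM.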

Other observations

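Several members varied more within groups than between them. The glutamate carrier Slc25a22 differed by up to 16.4-fold within a group, and reached 55.6 TPM in sedentary replicate 2, 27.5 TPM in untrained 72 h replicate 1 and 33.7 TPM in trained 72 h replicate 2, with the other sedentary libraries at 5.02 and 3.39 TPM. Slc25a53 differed by up to 13.6-fold within a group and Slc25a17, a peroxisomal carrier, by up to 4.18-fold, with 15.2 TPM in trained 0 h replicate 3. None of these members had an adjusted p below 0.05 in any of the 9 comparisons (limma).

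The citrate carrier Slc25a1, which supplies carbon for fat synthesis, was highest in trained 0 h replicate 3 (13.0 TPM) and untrained 72 h replicate 2 (9.13 TPM), against 1.17 TPM in its lowest library. Summed adipocyte markers in these libraries were 104 and 134 TPM, among the 3 highest of all. The other of the 3, untrained 6 h replicate 3, had 107 TPM of adipocyte markers and 2.85 TPM of Slc25a1. The dicarboxylate carrier Slc25a10 was also highest in untrained 72 h replicate 2 (2.71 TPM) and trained 0 h replicate 3 (2.63 TPM). The part of adipocytes in these levels was not tested.

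Slc25a30, also called kidney mitochondrial carrier protein, measured 1.02, 1.00 and 1.04 TPM in sedentary muscle and 1.03 to 3.57 TPM in the exercised libraries, chosen here after its values were seen. Its log2 fold change was between 0.52 and 0.81 in all 6 comparisons with sedentary muscle, which share those libraries, and the adjusted p lay between 0.128 and 0.921 (limma).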
